A study of Drosophila melanogaster with 18 samples.

Results

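Quasimodo is an LTR retrotransposon of the Ty3/gypsy superfamily of Drosophila melanogaster, and it is 1 of the 35502 rows shared by the RNA and ChIP tables. It was found by its FlyBase name and was selected on 2 measured values: its gain of Polybromo on Piwi knockdown, and RNA that was not lower without Brm. Those values are therefore given as a description, and nothing rests on them. The row stands for the whole family, since reads from all its copies in the genome enter 1 value, so it has no position of its own and a value cannot be assigned to any copy.

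The libraries were made from ovarian somatic cells (OSCs), a cell line cultured from somatic follicle cells of the ovary. RNA-seq libraries came from cells 2 days after knockdown of egfp (the control), piwi, mael or brm. ChIP-seq libraries for Brm, Polybromo and Osa came from cells 2 days after knockdown of egfp (called control below) or piwi, with 1 input library per condition for Brm and Polybromo together and another for Osa. Each group held 1 library, 14 in all, so differences are between single libraries and carry neither a p-value nor a check by replicates. Intervals are at the 95% level and cover counting error alone.

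Retrotransposons of this kind are copied through RNA by their own reverse transcriptase, and several of them are active in the somatic cells around the fly germ line. There Piwi, a nuclear Argonaute protein guided by piRNAs, silences them at the level of transcription and chromatin, and Maelstrom (Mael) is needed for that silencing. Brahma (Brm) is the ATP-hydrolysing subunit of SWI/SNF chromatin remodellers, which exist in 2 forms in flies: PBAP contains Polybromo, and BAP contains Osa. The series set out to compare transposon RNA without Piwi, Mael or Brm, and where these subunits bind when Piwi is present or depleted.

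The RNA libraries held 4865534 to 9498401 reads and the ChIP and input libraries 475226 to 2779826. Each targeted gene had its lowest RNA level in its own knockdown. In RPKM (read counts that the authors divided by feature length and library size), piwi was at 81.5 in the control and 10.95 without Piwi, mael at 14.5 and 4.20 without Mael, and brm at 6.66 and 0.54 without Brm. The Brm knockdown also held less piwi RNA (21.3 RPKM) and less polybromo RNA (3.61 against 10.6 RPKM). Of 5 ovarian somatic markers, 4 exceeded 1 RPKM in all 4 libraries, led by tj (55.6 to 133 RPKM), while ct stayed at 0.15 RPKM or less. Germline markers summed to between 1.20 and 2.71 RPKM, and none of the 5 found exceeded 1 RPKM in all 4 libraries. The 3 hemocyte markers summed to 0.409 to 2.01 RPKM, with none above 1 RPKM in all 4. Of 2 neuron markers, elav exceeded it (1.19 to 2.82 RPKM) and nSyb was at 0.14 RPKM or less. In bulk RNA of this kind, fewer cells of a type and less RNA per cell cannot be told apart.

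Quasimodo RNA was at 40.5 RPKM in the control (2686 reads), 918 RPKM without Piwi (60776 reads), 349 RPKM without Mael (24492 reads) and 44.9 RPKM without Brm (1613 reads). The Piwi knockdown was thus the highest library, the Mael knockdown came next, and the control and the Brm knockdown lay close together at the bottom. As a share of all reads, the control held 0.0299% (0.0283 to 0.0315) and the Brm knockdown 0.0332% (0.0309 to 0.0355). These intervals overlap, which does not give the counting error of the difference. The interval of the read ratio, relative to the median feature, is given below. Among the 119 transposon families of the species, Quasimodo stood at place 10 in the control, 5 without Piwi, 6 without Mael and 8 without Brm. In the control its neighbours were 3S18 (53.7 RPKM) and diver (31.7 RPKM), both LTR elements. Without Piwi it lay between blood (1043 RPKM) and mdg1 (513 RPKM), elements of the same superfamily. Without Brm it was flanked by invader1 at 45.9 RPKM and blood at 41.9 RPKM. Its share of all transposon reads was 0.251% in the control, 5.19% without Piwi, 2.36% without Mael and 0.167% without Brm.

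**Figure D1:**
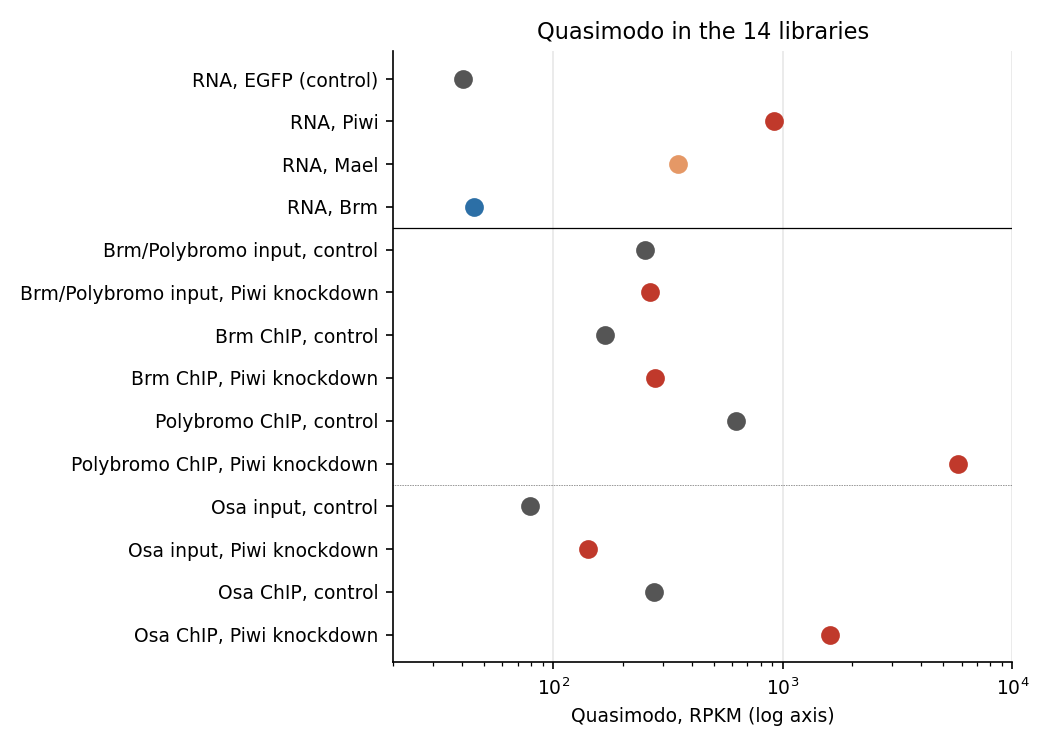
Level of Quasimodo in RPKM (log axis) in each of the 14 libraries, 1 point a library; red marks Piwi knockdown, orange Mael, blue Brm and grey the controls. RNA runs from 40.5 in the control to 918 without Piwi, and the Polybromo ChIP of the Piwi knockdown stands highest at 5766.

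Knockdown of Piwi was accompanied by 22.7 times the control level of Quasimodo RNA. On the scale of log2(RPKM + 1), relative to the median of 5304 tested features, the difference was 4.51 (interval without the added 1, 4.46 to 4.62). Features were tested when the mean of both libraries reached 5 RPKM, and were called at a 2-fold difference. Quasimodo had the second highest difference of all 5304 features, after mdg1 at 4.96 and before Tabor, the next transposon, at 3.28. At that rule 1.21% of all features and 36.4% of the 33 transposons tested (12 of 33) were called higher. A feature can reach this floor through the knockdown library alone. Dm412, among the 12, did so, at 1.57 RPKM in the control and 10.7 RPKM without Piwi. Of the 46 other members found of a list of gypsy-superfamily elements, 18 were tested and 10 were called higher, with a median of 1.17. In log2 reads, Quasimodo differed from mdg1 by -0.50 (-0.65 to -0.35), from Tabor by 1.09 (0.89 to 1.30) and from gypsy, the element that names the superfamily, by 2.68 (2.59 to 2.76). All transposons together held 11.9% of reads in the control and 13.1% without Piwi, a net rise of 1.14 points. Quasimodo rose by 0.648 points, 57.0% of that net. Others moved both ways within it, such as gypsy (330 to 1172 RPKM) and copia (15484 to 12904 RPKM). The 57.0% is therefore not a share of all rises.

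**Figure D2:**
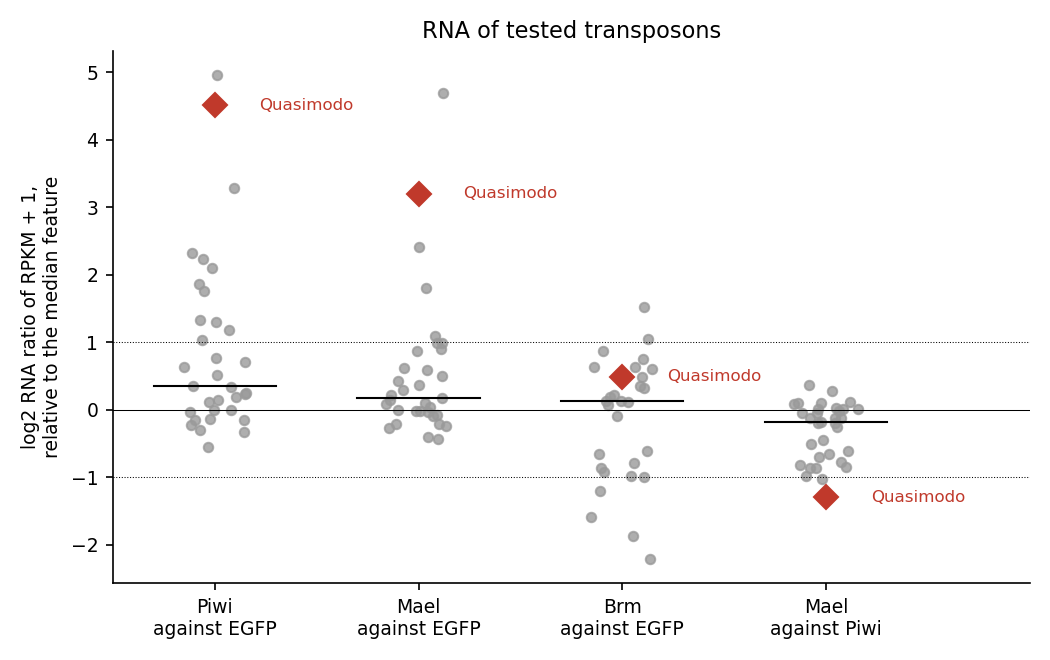
Difference of log2(RPKM + 1) relative to the median tested feature for each tested transposon (grey) and Quasimodo (red) in 4 comparisons of single libraries; bars are medians over transposons and dotted lines mark 2-fold. Quasimodo is second highest without Piwi (4.51) and without Mael (3.20), lies at 0.49 without Brm, and is lowest in Mael against Piwi (-1.30).

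Without Mael, Quasimodo RNA was at 8.62 times the control level, a difference of 3.20 (3.15 to 3.31). This was again the second highest of all features tested, 5243 here, behind mdg1 at 4.69 and before Tabor at 2.41. In that comparison 0.687% of all features and 15.2% of transposons (5 of 33) were called higher. Beside Quasimodo these were mdg1, Tabor, Dm297 at 1.80 and blood at 1.10, all on the list of the superfamily. The Piwi and Mael comparisons share the control library, so those knockdowns were also set against each other directly. Mael knockdown gave 0.380 times the level of Piwi knockdown, and the rise over the control without Mael was 35.2% of that without Piwi.

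Set against the Piwi knockdown, the Mael knockdown had a Quasimodo difference of -1.30 (-1.33 to -1.27). That was the lowest of the 33 transposons tested, below FB, a foldback DNA element, at -1.03. Of these transposons 6.06% were called lower, and of all 5247 features 0.572%. mdg1, by contrast, stood at -0.25 in the same comparison, and the difference of Quasimodo from it was -1.05 (-1.09 to -1.005). Gypsy was at -0.87, blood at -0.98 and Dm297 at -0.50. None of the 17 other gypsy-superfamily elements tested passed 2-fold, and their median was -0.45.

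Without Brm, Quasimodo RNA was at 1.11 times the control level as deposited, or 0.15 on the log2 scale. The median of the 5009 features tested in that comparison was itself at -0.34, and relative to it Quasimodo stood at 0.49 (0.36 to 0.62). It held place 8 of 29 transposons, next to Doc2-element at 0.61 and Doc at 0.49, both LINE elements. Of all features 3.35% were called higher and 4.11% lower, and of transposons 6.90% and 13.8%. Quasimodo was in neither group. Among 14 gypsy-superfamily elements tested, 4 were called lower (mdg1, blood, Stalker2 and gypsy) and 0 higher, with a median of -0.82, and 2 lay above Quasimodo. blood went from 250 RPKM in the control to 41.9 without Brm (log2 -2.21), gypsy from 330 to 70.8 (-1.86) and mdg1 from 16.01 to 4.84 (-1.20). copia, the most abundant element, went the other way, from 15484 to 35243 RPKM (1.53). Quasimodo exceeded gypsy by 2.37 (2.22 to 2.52) and mdg1 by 1.88 (1.53 to 2.22) in the log2 ratio of reads. The knockdown library held 4865534 reads, the fewest of the RNA libraries, and transposons took up 19.9% of them against 11.9% in the control. With the libraries scaled by a trimmed mean of the log ratios of recovered reads, the ratio was 0.52. Beyond that scaling, whether the makeup of this library bears on the ratio was not tested.

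**Figure D3:**
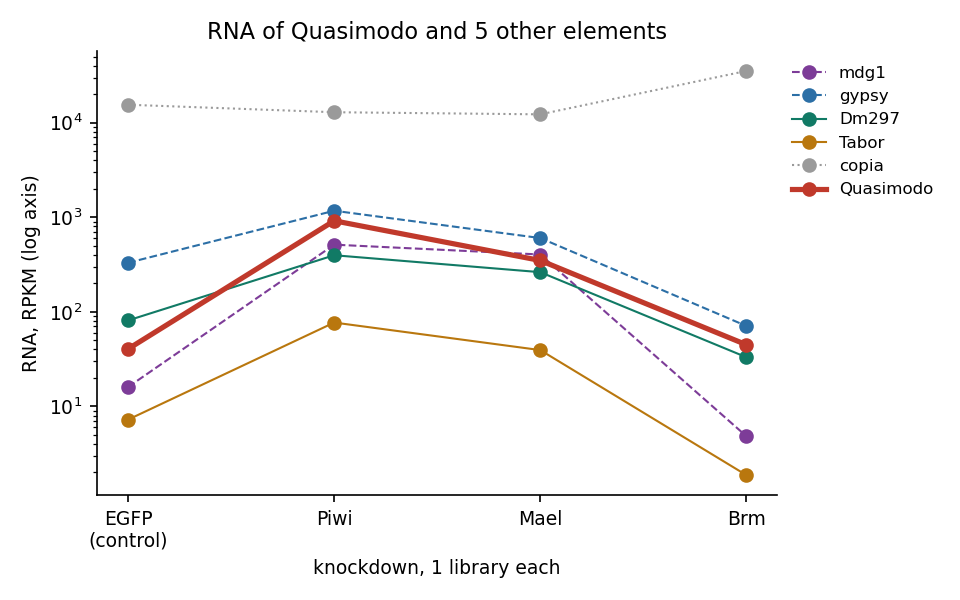
RNA level in RPKM (log axis) of Quasimodo (thick red) and 5 other elements in the 4 RNA libraries, 1 point a library; lines join the points of an element to guide the eye. Quasimodo lies near its control level without Brm (44.9 against 40.5), while gypsy (70.8 against 330) and mdg1 (4.84 against 16.01) lie below theirs.

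The elements with the RNA pattern nearest to that of Quasimodo were found from log2(RPKM + 1) in the 4 libraries, each feature centred on its own mean. Tabor was nearest of 29 transposons (distance 1.23), followed by Dm297 (1.58) and gypsy (2.10), where the median distance was 3.50. RNA without Brm, a value that Quasimodo was selected on, enters these distances and those of genes below. Tabor ran at 7.24, 77.0, 39.4 and 1.87 RPKM in the control and the Piwi, Mael and Brm knockdowns. It thus shared the order of the Piwi and Mael libraries but lay below its control level without Brm. Of 5118 genes, the nearest were Abl, a tyrosine kinase (1.52), Snoo, a Smad cofactor (1.63), and udd, a factor of ribosomal RNA transcription (1.72), where the median gene was at 3.75. Abl had 178 RPKM in the control, 1117 without Piwi, 413 without Mael and 71.9 without Brm. In the control input of Brm and Polybromo, udd, which has 1 transcript, was at 60.5 RPKM, where the median gene with 1 transcript was at 5.28 RPKM. Gene values sum all transcripts, so for the others the highest single transcript is given: 74.2 RPKM among 10 for Abl and 13.4 RPKM among 4 for Snoo. Whether reads of transposon sequence enter these gene values was not tested.

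The input libraries give the amount of Quasimodo DNA. In the inputs of Brm and Polybromo it was at 251 RPKM in the control (2476 reads) and 263 RPKM without Piwi (2208 reads), shares of 0.185% (0.178 to 0.193) and 0.194% (0.186 to 0.202) that overlap within counting error. In the Osa inputs it was at 79.3 RPKM (542 reads) and 142 RPKM (499 reads). The Osa inputs were thus lower than the other inputs and differed between the conditions by 1.79 times, where the median element differed by 1.25 times. The control input of Brm and Polybromo was 3.16 times the Osa one for Quasimodo and higher for 103 of 111 elements, with a median of 2.24 times. Relative to the median gene with 1 transcript, Quasimodo DNA was at 47.5 (45.6 to 49.4) and 49.2 (47.2 to 51.3) in the inputs of Brm and Polybromo, and at 8.58 (7.87 to 9.33) and 17.3 (15.8 to 18.8) in the Osa inputs. These values are not copy numbers, since the inputs do not give 1 value and the rule for reads that match several copies is not given in the sources used here.

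RNA per unit of this DNA level, taken from the inputs of Brm and Polybromo, was 0.852 RPKM in the control, 18.7 without Piwi, 7.35 without Mael and 0.945 without Brm. mdg1 came to 0.303, 9.54, 7.63 and 0.0914 in the same libraries, and blood to 5.42, 21.9, 10.7 and 0.908. Ranked by RNA over input among 111 elements, Quasimodo held place 15 in the control, 3 without Piwi, 7 without Mael and 10 without Brm. Per unit of DNA, Quasimodo therefore stood above mdg1 in the control and in the Piwi and Brm knockdowns. It stood close to mdg1 in the Mael knockdown. For the Mael and Brm knockdowns the DNA level is that of control cells.

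Polybromo ChIP gave the highest values of Quasimodo. It was at 626 RPKM in the control (4587 reads) and 5766 RPKM in the Piwi knockdown (48849 reads), where it exceeded every other row of the table. The next rows were springer (3276 RPKM) and gypsy (1562 RPKM), both of the same superfamily. Quasimodo went from 0.462% (0.449 to 0.476) to 4.26% (4.22 to 4.30) of all reads of that ChIP. Transposons together went from 9.61% to 13.8%, a net rise of 4.24 points. Quasimodo rose by 3.80 points, 89.7% of that net. Others moved both ways within it, such as gypsy (749 to 1562 RPKM) and roo (709 to 583 RPKM). The 89.7% is therefore not a share of all rises. The other transposons summed to 9.15% in the control and 9.59% without Piwi.

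Enrichment was taken as log2 of ChIP over its own input, relative to the median of 8286 features with enough input. For Polybromo it was 1.42 (1.35 to 1.49) in the control and 4.66 (4.60 to 4.73) without Piwi. In the control it was the highest of 115 transposons, before HeT-A, a telomeric element, at 0.74, and it alone of them passed 2-fold (0.870%), against 4.26% of all features. Without Piwi, 2 features lay above it, both copies of the histone H4 gene (His4:CG33869 at 4.69 and His4:CG33875 at 4.92), whose reads cannot be assigned with certainty among near-identical copies. The next transposon, diver, was at 1.34. The change was 3.22 (3.13 to 3.32), the highest of the 115 transposons, of which 2.61% passed 2-fold (3), against 8.48% of all features. The other 2 were Helitron at 1.25, from 2 and 3 ChIP reads, and gypsy at 1.10. Quasimodo exceeded gypsy by 2.12 (2.00 to 2.23) and mdg1 by 3.16 (3.01 to 3.32). Larger changes were seen for 19 genes, each with at most 13 Polybromo ChIP reads over both conditions. Among 52 features with at least 1000 such reads, a limit added after the values were seen, 3.85% passed 2-fold (2, Quasimodo and gypsy). With the Osa inputs in place of its own, the change was 2.12 and the control enrichment 3.74.

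**Figure D4:**
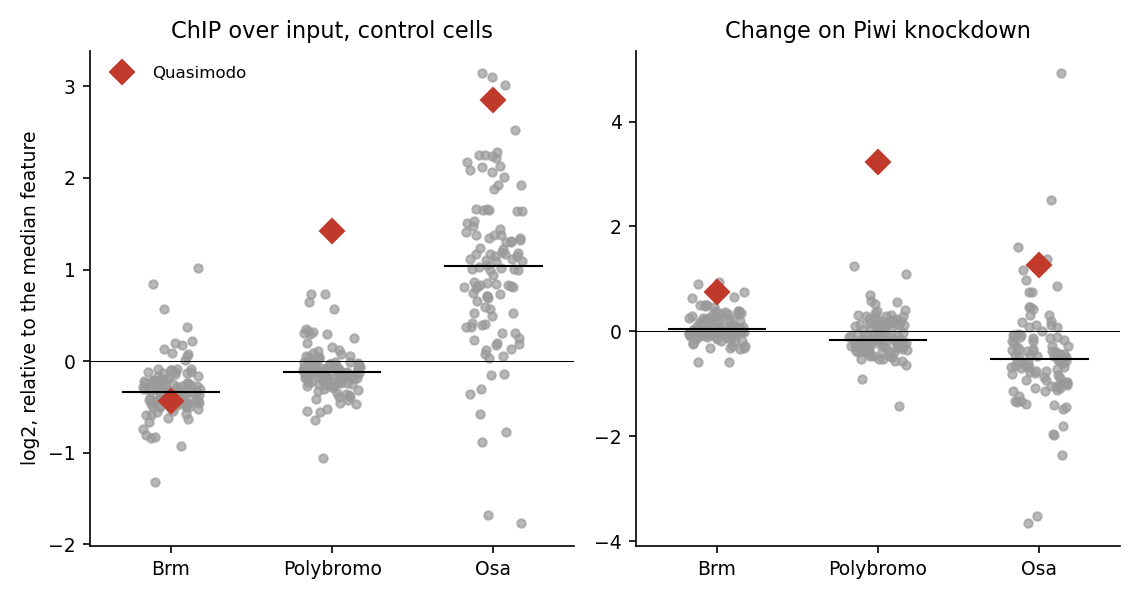
Enrichment in control cells (left) and its change on Piwi knockdown (right) for each transposon (grey) and Quasimodo (red), as log2 of ChIP over own input relative to the median feature; bars are medians over transposons. Quasimodo stands apart for Polybromo (1.42 and 3.22) and lies within the range of the other transposons for Brm (-0.43 and 0.75) and Osa (2.85 and 1.26).

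Brm ChIP showed smaller values on Quasimodo. It was at 168 RPKM in the control (3455 reads) and 277 RPKM without Piwi (2545 reads), so that the control ChIP lay below its input of 251 RPKM and the knockdown ChIP close to its input of 263 RPKM. Enrichment was -0.43 (-0.51 to -0.36) in the control and 0.31 (0.23 to 0.39) without Piwi. The change of 0.75 (0.64 to 0.86) stayed under 2-fold, as did all 115 transposons (0%), where 6.26% of all features passed. Quasimodo held place 4, next to gypsy at 0.76, from which it differed by -0.01 (-0.13 to 0.12). Among 74 features with at least 1000 Brm ChIP reads, the limit added above, 0% passed 2-fold and Quasimodo held place 2, after gypsy. The signs of the control enrichment and of the change were reversed with the Osa inputs, at 1.81 and -0.32. ChIP against ChIP, with the inputs left out, gave a change of 0.81. The median transposon had a control enrichment of -0.33 with its own input, and 0.870% of transposons and 6% of all features passed 2-fold.

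Brm and Polybromo used the same inputs, which therefore largely cancel in the difference between them. The change of Polybromo exceeded that of Brm by 2.47 (2.38 to 2.56), the highest of 115 transposons, whose median was -0.20. Quasimodo was selected on its Polybromo change, so this difference and its place partly restate that selection and are a description only. In the control the enrichment of Polybromo exceeded that of Brm by 1.86 (1.79 to 1.92), also the highest, before Bari2, a DNA transposon, at 0.88. Without Piwi the gap was 4.35 (4.30 to 4.41), a value that the selected change also enters. As plain ratios of RPKM, Polybromo ChIP was 3.72 times Brm ChIP in the control and 20.8 times in the Piwi knockdown. The RNA of the genes for the 3 antigens differed by under 2-fold between the control and the Piwi knockdown, with brm at 6.66 and 6.19 RPKM, polybromo at 10.6 and 8.52, and osa at 4.57 and 6.85. Protein levels were not measured.

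Osa ChIP of Quasimodo was at 275 RPKM in the control (3152 reads) and 1597 RPKM without Piwi (14585 reads), the second highest row after springer (6453 RPKM). Enrichment was 2.85 (2.72 to 2.98) in the control and 4.03 (3.90 to 4.16) without Piwi. High values were common there, since 53.7% of 108 transposons and 23.8% of all features passed 2-fold in the control. Quasimodo held place 4, between Stalker2 at 3.02 and hobo, a DNA transposon, at 2.53. The change was 1.26 (1.08 to 1.45), place 5 of 108 transposons, of which 5.56% passed 2-fold (6), against 29.0% of all features. Frogger lay next above at 1.38, from 5 ChIP reads in the control and 9 without Piwi. Dm297 was next below at 1.17 and differed from Quasimodo by 0.09 (-0.17 to 0.35). Among 51 features with at least 1000 Osa ChIP reads, Quasimodo had the highest change, and 3.92% passed 2-fold (2, Quasimodo and Dm297). The Osa inputs were shallow and differed between conditions. With the inputs of Brm and Polybromo, the control enrichment was 0.73 and the change 2.34.

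Of the 12 transposons called higher without Piwi, Quasimodo was set beside the 11 others. Their Polybromo changes ran from -0.22 (Transpac) to 1.10 (gypsy), with a median of 0.09, and that of Quasimodo was 3.22. mdg1, with a larger RNA difference of 4.96, had a Polybromo change of 0.06, and Tabor, with 3.28, one of 0.11. The RNA of these 11 without Brm ran from -2.21 (blood) to 0.75 (mariner2, a DNA transposon), with a median of -0.997, where Tabor and Dm412 were under the floor of 5 RPKM. Quasimodo at 0.49 thus lay inside that range, above all of them but mariner2. mdg3 was the remaining element above 0, at 0.22. Their Brm changes ran from -0.05 to 0.76 and their Osa changes from -0.93 to 1.17, with medians of 0.26 and -0.12.

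**Figure D5:**
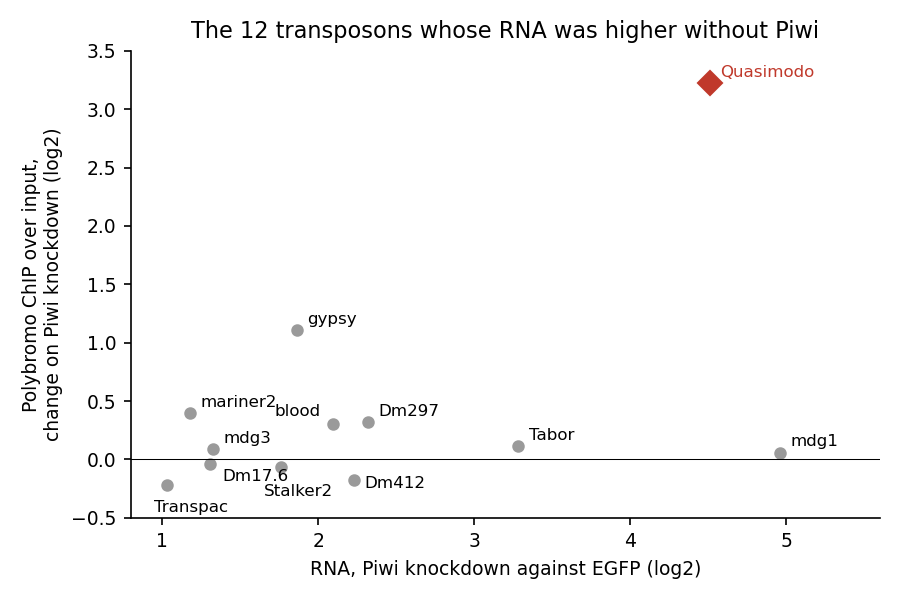
Change of Polybromo enrichment on Piwi knockdown (log2, vertical) against the RNA difference between Piwi knockdown and control (log2, horizontal) for the 12 transposons called higher, 1 point an element. Quasimodo (red) lies at 4.51 and 3.22, and mdg1, farther right at 4.96, has a Polybromo change of 0.06.

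By the 3 control enrichments and the 3 changes together, the nearest of 107 other transposons were Dm297 (distance 3.39), gypsy (3.58) and Dm17.6 (3.63), where the median was 4.69. The Polybromo change, a value that Quasimodo was selected on, enters these distances. With it left out, the same 3 elements were at 1.61 (Dm17.6), 1.76 (Dm297) and 2.88 (gypsy). The other transposons were not ranked anew by that distance, so it does not show which elements are nearest without the Polybromo change. Polybromo ChIP of Dm297 went from 156 to 176 RPKM and of Dm17.6 from 187 to 173 RPKM, while Osa ChIP went from 163 to 1067 and from 512 to 1392 RPKM.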

How the data were processed

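RNA and ChIP values are RPKM computed and deposited by the authors for 35502 features in 14 libraries of 1 per group. Per the submitters' processing notes, the tools and builds include Bowtie2 2.2.4 and dm6. How reads were counted, also those that match several places, is not given in the sources used here. The RNA table has 4 further columns that fit no listed sample and stayed unused, and 4 ovary libraries of the 18 samples listed were not analysed here.

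Quasimodo and the lists of elements and genes were chosen with earlier results of these data known. Library totals were found as the number that turns RPKM times length into whole reads, within 0.01, for genes with 1 transcript, and each row's length as the shortest between 20 and 80000 bases that makes its values whole (Quasimodo 7387). A length found this way can be too short, which would understate reads. Both mates of an RNA pair appear to be counted, so RNA intervals (Clopper-Pearson) take 1 fragment per 2 reads. For ChIP, intervals take log read ratios as normal. PCR duplicates cannot be told apart from separate molecules. The listed features held 99.999% of RNA reads and 29.7% to 38.7% of ChIP and input reads.

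Transcripts were matched to symbols with the RefSeq gene table (32988 matched, 2341 did not and were left out), and transcripts of the same gene were added up in RPKM, so reads shared by isoforms may count more than once. The 52 transposon rows named for other species were left out, which gave 16571 features. RNA differences used log2(RPKM + 1), which understates changes of weak features, with a mean of at least 5 RPKM and the median of tested features subtracted. For ChIP enrichment, the 5th percentile of input values (zeros left out) was added to ChIP and input, and kept features whose mean of its 2 inputs was at least the median. Elements named by a number carry the prefix Dm.

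Named features were the knocked-down genes and antigens, the 3 transposons and 3 genes nearest in RNA and the 3 transposons nearest in ChIP, neighbours in each order, and mdg1, gypsy, blood, Dm297, Dm17.6, Tabor and copia. Others (springer, Stalker2, mdg3, mariner2, Transpac, Dm412 and the histone genes) were named after their values were seen. Alternatives covered pseudocounts, floors, centring, inputs and thresholds. Python 3.11.15, numpy 2.4.6, pandas 2.3.3 and scipy 1.17.1 were used, and the steps were tested on simulated data.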

Additional observations from a re-analysis of the deposited data

How the results depend on the processing

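No paired analysis was possible because each group held 1 library. No alternative changed the sign of a value that passed 2-fold, and the ranks 2, 2, 4, 1 and 5 (RNA without Piwi and without Mael, and Brm, Polybromo and Osa change) were the same at the lower floors. Another pseudocount, centring on genes, a trimmed mean of M values computed directly on the recovered reads in place of the planned package, and the lower floor moved no RNA ratio by more than its counting error. For the values below, where the alternative's own construction does not give it, the cause was not tested. As deposited, without centring, the RNA ratios were 3.08 (Mael), 0.15 (Brm) and -1.39 (Mael against Piwi), the control enrichments -0.57 (Brm), 1.31 (Polybromo) and 1.77 (Osa), and the Osa change 1.71. With the inputs of the other antibody set, the control enrichments were 1.81, 3.74 and 0.73 and the changes -0.32, 2.12 and 2.34 for Brm, Polybromo and Osa. Centred on transposons, the enrichments were -0.10, 1.54 and 1.81, the Polybromo change 3.38 and the Osa change 1.79. With no floor on input, the enrichments were -0.56, 1.31 and 2.09 and the Osa change 1.46. Without a pseudocount the Osa enrichment was 2.99, and ChIP against ChIP gave an Osa change of 2.45. Over the median of all features, the DNA level was 101.8 and 107.9 in the inputs of Brm and Polybromo and 21.98 and 41.1 in the Osa inputs. At a floor of 1 RPKM, Quasimodo held place 14 without Brm and place 65, again the lowest, in Mael against Piwi. At that floor 142, 90 and 358 features were higher without Piwi, Mael and Brm, and 87 were lower in Mael against Piwi. There 4 transposons were higher without Brm. More features enter at that floor and their numbers are not given here, so these counts carry no share. At 1.5-fold and the floor of 5 RPKM, 324 of 5304, 229 of 5243 and 574 of 5009 features were higher without Piwi, Mael and Brm. In Mael against Piwi 230 of 5247 were lower. Of transposons, 11 of 33 were higher without Mael, 7 of 29 higher without Brm and 11 of 33 lower in Mael against Piwi. For ChIP at 1.5-fold, 1342 (Brm), 1554 (Polybromo) and 3083 (Osa) of 8286 features had a higher change. Of transposons, 7 of 115 (Brm), 5 of 115 (Polybromo) and 10 of 108 (Osa) did. With no floor on input, 1565 (Brm), 1892 (Polybromo) and 5074 (Osa) of 16571 features had a higher change at 2-fold. Depth limits the Osa comparison most, since its inputs held 542 and 499 Quasimodo reads.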
